A study of Mus musculus with 12 samples.

Results

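The genes described here are those of the immunoproteasome and of peptide loading onto MHC class I: Psmb8, Psmb9, Psmb10, Psme1, Psme2, Tap1, Tap2, Tapbp, Erap1 and Nlrc5. They were taken by gene symbol from a table of estimated read counts with 57180 genes, and each of the 10 symbols occurred there. All 10 passed the filter on low counts that left 14362 genes for testing. Bulk RNA was sequenced from cultured KPC cells, a mouse pancreatic ductal adenocarcinoma line, and MB49 cells, a mouse bladder cancer line, both given as wild type (WT) in the labels. Irradiated KPC and irradiated MB49 cells received 8 Gy and were collected 48 h later, and each line had untreated controls, with 3 libraries in each of the 4 groups. The labels give no culture time for the controls, so time in culture and dose cannot be told apart, and the design text mentions senescent cells without saying which libraries held any. Whether the 3 libraries per group derive from different dishes is not stated, and p-values therefore measure only the spread among these libraries. The 12 libraries held 19006015 to 26337950 counts. The gene of 18S rRNA held 5.11% of one KPC control library (replicate 1) and 0.141 to 0.547% of each of the remaining 11.

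The proteasome cuts cytosolic proteins into peptides with the 3 catalytic subunits of its core, encoded by Psmb5, Psmb6 and Psmb7. Cells exposed to interferon build in the alternative subunits encoded by Psmb8, Psmb9 and Psmb10 instead, which favours peptide ends that bind MHC class I, and cap the core with the PA28 activator made of the products of Psme1 and Psme2. TAP, a dimer of the Tap1 and Tap2 products, pumps peptides into the endoplasmic reticulum. There ERAP1 trims them and tapasin, the product of Tapbp, helps load them onto class I molecules. NLRC5 is a transcriptional co-activator of class I genes and of several genes of this route.

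All 10 genes were higher after 8 Gy in both lines. In KPC cells 10 of 10 passed the test upward (edgeR quasi-likelihood test, Benjamini-Hochberg adjusted p under 0.05), against a background of 31.3% of all genes tested. In MB49 cells 10 of 10 did so, against 35.3%. Since such calls were common, size separates the genes better: 9 of the 10 were called and at least 4-fold higher in KPC cells, where 7.45% of all genes were, and 9 of the 10 in MB49 cells, where 8.05% were. The median log2 fold change of the 10 was 3.72 in KPC cells, against -0.01 over all genes tested, and 3.28 in MB49 cells, against 0.04. The 3 irradiated libraries lay above the 3 controls for 10 of 10 genes in each line, while 34.7% of all genes did so in KPC and 35.1% in MB49. Together the 10 genes took 0.423 to 0.466% of all counts in irradiated KPC libraries, against 0.0483 to 0.0538% in KPC controls. They took 0.360 to 0.413% in irradiated MB49 libraries, against 0.0440 to 0.0517% in MB49 controls. In bulk RNA, more cells with a raised level and a higher level per cell cannot be told apart.

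**Figure D1:**
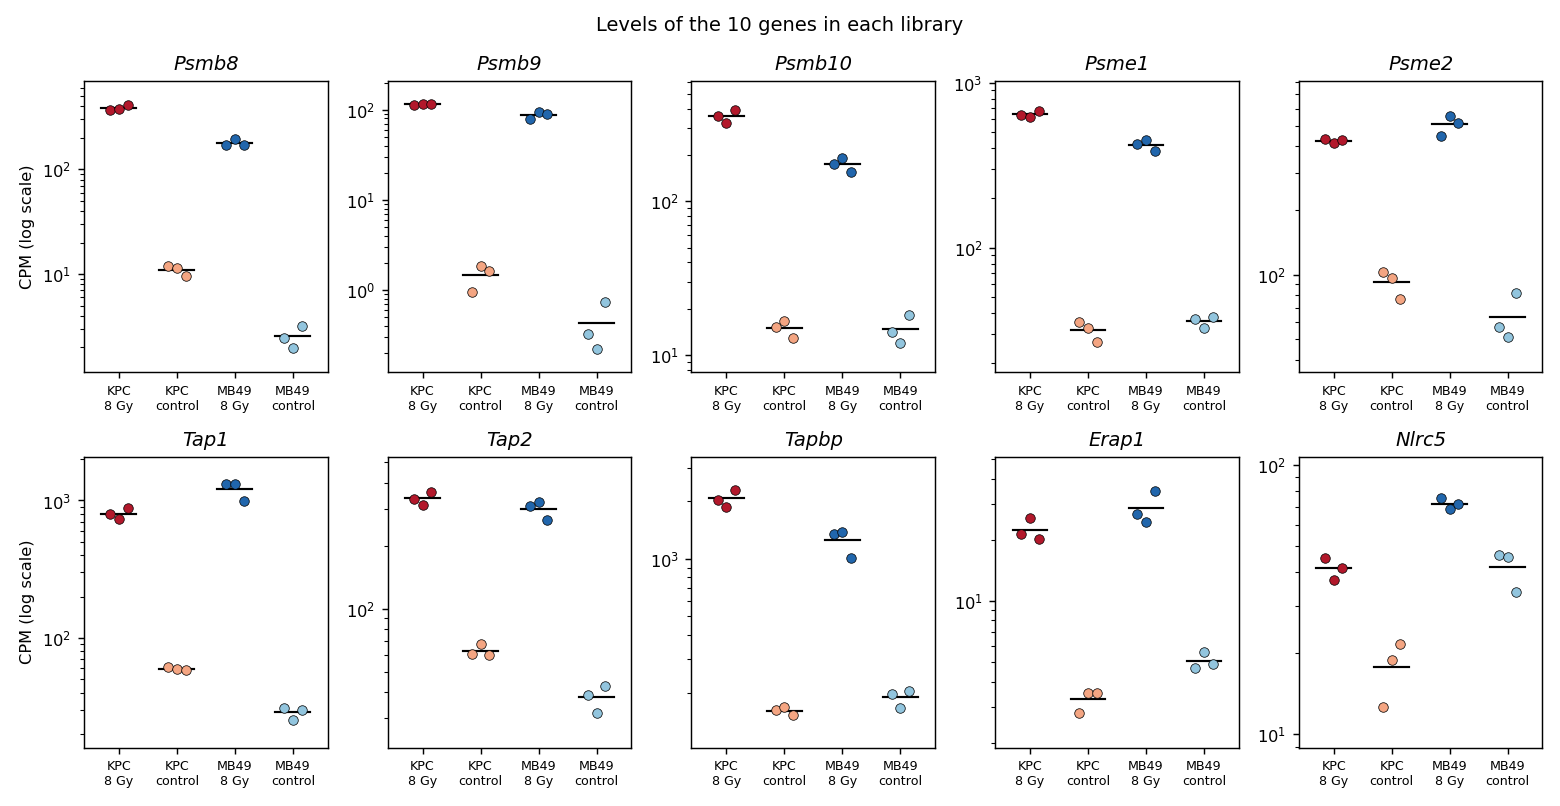
Level of each gene in CPM (log axis, a separate scale for each gene) in the 12 libraries, with 3 points per group and the group mean as a line. Irradiated libraries lie above the controls of the same line in every panel, and the gap is narrowest for Nlrc5.

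Psmb9 and Psmb8, of the catalytic subunits of the immunoproteasome, had the largest log2 fold changes of the 10 in both lines, while Psmb10 came next in KPC but below Tap1 in MB49. Psmb9, which encodes the beta 1 type subunit, stood at 113, 115 and 117 CPM (counts scaled by library size) in irradiated KPC libraries, against 0.956, 1.87 and 1.63 CPM in KPC controls. In MB49 it stood at 79.4, 94.8 and 88.9 CPM after 8 Gy, against 0.327, 0.220 and 0.737 CPM in controls, where it had 9, 6 and 17 counts. The controls of both lines held few reads of this gene, and the irradiated groups were far above them without overlap. Its log2 fold changes were 6.26 ± 0.23 in KPC (SE, adjusted p = 3.02e-13) and 7.71 ± 0.26 in MB49 (adjusted p = 2.63e-13). Over the alternative settings the MB49 value ran from 7.38 to 8.29, the latter without MB49 control replicate 3. Among all 14362 genes the main rises of Psmb9 ranked 121 in KPC and 38 in MB49.

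Psmb8, the gene of the beta 5 type subunit, was at 371, 378 and 410.3 CPM in irradiated KPC libraries, against 11.9, 11.4 and 9.64 CPM in KPC controls. In irradiated MB49 libraries it was at 172, 195 and 171 CPM, against 2.47, 1.98 and 3.21 CPM in MB49 controls. The MB49 controls lay below every KPC control, and both lines rose well clear of them. Fitted log2 fold changes were 5.13 ± 0.16 in KPC (adjusted p = 4.21e-14) and 6.14 ± 0.17 in MB49 (adjusted p = 2.90e-14).

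Psmb10, the gene of the beta 2 type subunit, was the highest of the 3 in controls per length. It stood at 357, 321 and 392 CPM in irradiated KPC libraries, against 15.2, 16.7 and 12.8 CPM in KPC controls. In MB49 it stood at 174, 192 and 155 CPM after 8 Gy, against 14.1, 11.98 and 18.1 CPM in controls. Control levels of the lines overlapped, while the irradiated KPC libraries lay above every irradiated MB49 library. On the log2 scale the rises were 4.58 ± 0.17 in KPC (adjusted p = 4.77e-13) and 3.56 ± 0.16 in MB49 (adjusted p = 7.36e-12).

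The constitutive partners moved much less. The log2 fold change of Psmb5 was 0.08 ± 0.17 in KPC (adjusted p = 0.723) and 0.85 ± 0.17 in MB49 (adjusted p = 0.000317). That of Psmb6 was 0.61 ± 0.16 in KPC and 1.14 ± 0.17 in MB49 (adjusted p = 0.0033 and 1.1e-05), and that of Psmb7 0.26 ± 0.15 in KPC and 0.87 ± 0.15 in MB49 (adjusted p = 0.132 and 6.23e-05). A ratio of the alternative to the constitutive subunit gene of a catalytic site, taken per length within a library, does not depend on library scaling. It can still carry a trend of the response with gene length, and short genes as a class moved up in MB49 (given below). Psmb5, Psmb6 and Psmb7 are listed with 899, 798 and 1160 bases, against 1628, 1352 and 1311 for Psmb8, Psmb9 and Psmb10. The part of this trend in the MB49 ratios was not tested. Psmb8 over Psmb5 was 1.60 in irradiated KPC cells, against 0.0482 in KPC controls, and 0.761 in irradiated MB49 cells, against 0.0197 in MB49 controls (group means of the log2 ratio, written as ratios, n = 3 each). Psmb9 over Psmb6 was 0.371 and 0.00717 in irradiated and control KPC cells, and 0.445 and 0.00455 in irradiated and control MB49 cells. Psmb10 over Psmb7 was 1.59 and 0.0804 in irradiated and control KPC cells, and 0.825 and 0.128 in irradiated and control MB49 cells. After 8 Gy the alternative gene thus exceeded its partner for the beta 5 and beta 2 sites in KPC and stayed below it at all 3 sites in MB49. Averaged over the lines, the log2 ratio was higher after 8 Gy by 5.16 for Psmb8, 6.15 for Psmb9 and 3.50 for Psmb10. Each gave p = 0.005 in a 2-sided exact permutation test with treatment labels permuted within lines, the smallest p that its 400 arrangements allow.

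Of the summed level per length of the 6 catalytic subunit genes, the 3 immunoproteasome genes made up 51.8, 52.3 and 51.9% in irradiated KPC libraries, against 3.86, 4.48 and 4.48% in KPC controls. They made up 42.3, 41.2 and 38.1% in irradiated MB49 libraries, against 5.60, 5.14 and 5.19% in MB49 controls. The share was higher in KPC than in MB49 after 8 Gy by 11.4 percentage points and lower in KPC controls than in MB49 controls by 1.04 percentage points, with no overlap in either case. With 3 libraries against 3 an exact permutation test cannot go below p = 0.1, which both of these differences gave.

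**Figure D2:**
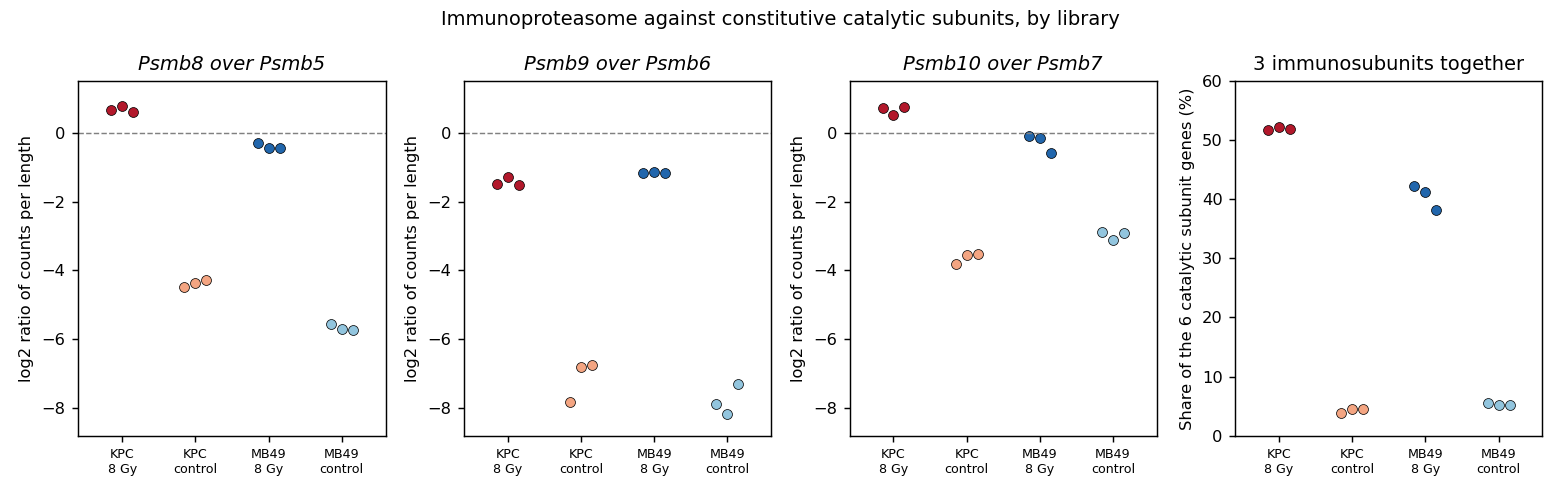
The first 3 panels plot, per library, the log2 ratio of an immunoproteasome subunit gene to its constitutive partner in counts per length, with a dashed line at equal levels, and the last panel the share of the 3 immunoproteasome genes among the 6 catalytic subunit genes in percent. Irradiated KPC libraries lie above the line for Psmb8 and Psmb10, and their share is 51.8 to 52.3%, against 38.1 to 42.3% in irradiated MB49 libraries.

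The PA28 activator genes rose unequally. Psme1, encoding the alpha subunit, was at 636, 625 and 672 CPM in irradiated KPC libraries, against 35.3, 32.5 and 26.8 CPM in KPC controls. It was at 427, 452 and 384 CPM in irradiated MB49 libraries, against 36.6, 32.4 and 37.8 CPM in MB49 controls. Control levels overlapped between lines, and after 8 Gy KPC was the higher line. The fitted rises (log2) were 4.35 ± 0.14 in KPC (adjusted p = 8.07e-14) and 3.56 ± 0.14 in MB49 (adjusted p = 8.73e-13). Psme2, encoding the beta subunit, was at 431, 414 and 426 CPM in irradiated KPC libraries, against 103, 96.5 and 77.2 CPM in KPC controls. In MB49 it was at 448, 552 and 516 CPM after 8 Gy, against 57.1, 51.2 and 81.9 CPM in controls. The mean was higher in KPC than in MB49 among controls and lower in KPC after 8 Gy, with overlapping controls. The log2 fold changes were 2.20 ± 0.17 in KPC (adjusted p = 4.16e-09) and 2.996 ± 0.17 in MB49 (adjusted p = 1.09e-10). The Psme1 to Psme2 ratio per length was 1.28 to 1.36 in irradiated KPC libraries, against 0.292 to 0.3003 in KPC controls, and 0.643 to 0.824 in irradiated MB49 libraries, against 0.399 to 0.555 in MB49 controls. Another activator gene, Psme3, whose product caps nuclear proteasomes, fell by 1.75 on the log2 scale in KPC and by 2.43 in MB49 (adjusted p = 2.18e-09 and 4.24e-11).

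Both TAP transporter genes rose, Tap1 more than Tap2 in fitted fold. Tap1 was at 795, 730.4 and 885 CPM in irradiated KPC libraries, against 61.1, 59.1 and 58.7 CPM in KPC controls. In MB49 it was at 1310.2, 1313 and 990.1 CPM after 8 Gy, against 30.8, 25.2 and 30.1 CPM in controls. The order of the lines turned round: every KPC control lay above every MB49 control, and every irradiated KPC library lay below every irradiated MB49 library. Fitted log2 fold changes were 3.75 ± 0.15 in KPC (adjusted p = 1.07e-12) and 5.39 ± 0.16 in MB49 (adjusted p = 6.18e-14). Tap2 was at 335, 314 and 362 CPM in irradiated KPC libraries, against 61.0, 67.6 and 60.1 CPM in KPC controls. It was at 308, 325 and 265 CPM in irradiated MB49 libraries, against 38.4, 31.8 and 42.8 CPM in MB49 controls. Irradiated libraries of the lines overlapped for this gene. Its log2 fold changes were 2.42 ± 0.13 in KPC (adjusted p = 7.98e-11) and 2.99 ± 0.14 in MB49 (adjusted p = 6.80e-12). Per length, Tap1 over Tap2 was 2.71 to 2.85 in irradiated KPC libraries, against 1.02 to 1.17 in KPC controls, and 4.35 to 4.96 in irradiated MB49 libraries, against 0.820 to 0.932 in MB49 controls.

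Psmb9 and Tap1, whose rises ranked 38 and 142 among all genes in MB49, are neighbours that are read away from each other, and Psmb8 and Tap2 follow them in the order Psmb9, Tap1, Psmb8, Tap2 on chromosome 17. The stretch between the start sites of Psmb9 and Tap1 is 225 bases long in RefSeq's GRCm38.p6 entries. In GENCODE vM21 the annotated spans of the 2 genes instead overlap by 212 bases on opposite strands, so reads from there may be shared between them. It lies at chr17:34187331-34187555 of that build, which differs from the GRCm39 build named in the submitters' processing notes, and is shown on the plus strand, from the Psmb9 start to the Tap1 start, with the 6 letters of a GC box in capitals:
Psmb9 to Tap1: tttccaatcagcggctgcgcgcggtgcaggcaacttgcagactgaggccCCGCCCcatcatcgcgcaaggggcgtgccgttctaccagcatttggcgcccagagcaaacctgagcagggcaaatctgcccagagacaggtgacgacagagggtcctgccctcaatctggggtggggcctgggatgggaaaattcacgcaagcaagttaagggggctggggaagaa

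Promoter windows of 300 bases were at hand from RefSeq for 8 of the 10 genes (not Tap2 and Nlrc5), and matches of 3 strings on either strand are given. GAAANNGAA, the core of the element bound by interferon-stimulated transcription factors, was in the windows of Psme1 and Erap1, 2 of 8 genes, and in those of 9.76% of all 27025 genes. GGGANTTTC, the first letters of a common NF-kB site, was in none of the 8 and in 1.29% of all genes. GGGCGG, the GC box, was in 6 of 8 genes and 38.2% of all genes. Psmb9 and Tap1 share 1 GC box, the one in capitals above. No matches overlapped in the 8 genes' windows, except that the 2 in Erap1 share letters. The 150 bases before the start of Erap1, on the plus strand of GRCm38.p6 at chr13:74639703-74639852, are given with the match in capitals:
Erap1: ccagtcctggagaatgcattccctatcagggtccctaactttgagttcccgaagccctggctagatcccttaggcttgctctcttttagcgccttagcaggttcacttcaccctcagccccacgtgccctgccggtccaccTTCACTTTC
In Erap1 the core, read on the other strand, takes up the last 9 bases before the start, and a further match runs across the start. The match of Psme1, TTCGCTTTC, lies 10 bases past its start. A match of letters is a description and no evidence of binding.

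Tapbp, the tapasin gene, was high in all groups. It was at 2034, 1870.4 and 2295 CPM in irradiated KPC libraries, against 161, 168 and 153 CPM in KPC controls. In MB49 it was at 1347, 1387 and 1009 CPM after 8 Gy, against 196, 167 and 205 CPM in controls. Control levels overlapped between the lines, and irradiated KPC libraries lay above all irradiated MB49 libraries. On the log2 scale the rises were 3.68 ± 0.15 in KPC (adjusted p = 2.16e-12) and 2.72 ± 0.15 in MB49 (adjusted p = 6.16e-11). Zbtb22, which GENCODE vM21 places partly over Tapbp on the same strand, went the other way, with log2 fold changes of -1.66 and -1.54 in KPC and MB49. Reads from their overlap of 3422 bases may be shared, and how they were divided was not tested. Erap1, the gene of the trimming peptidase, was the lowest of the 10 per length in both irradiated groups. It stood at 21.4, 25.4 and 20.1 CPM in irradiated KPC libraries, against 2.79, 3.52 and 3.51 CPM in KPC controls. It stood at 26.7, 24.5 and 34.7 CPM in irradiated MB49 libraries, against 4.68, 5.57 and 4.90 CPM in MB49 controls. Its log2 fold change was 2.77 ± 0.17 in KPC (adjusted p = 3.96e-10) and 2.50 ± 0.17 in MB49 (adjusted p = 7.92e-10).

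Nlrc5 rose least of the 10 in both lines. It was at 45.0, 37.5 and 41.6 CPM in irradiated KPC libraries, against 12.7, 18.96 and 21.7 CPM in KPC controls. It was at 75.5, 68.6 and 71.7 CPM in irradiated MB49 libraries, against 46.4, 45.6 and 33.9 CPM in MB49 controls. The treated and control groups did not overlap in either line, but the MB49 controls reached the level of irradiated KPC cells. The fitted rises (log2) were 1.22 ± 0.17 in KPC (adjusted p = 8.08e-06) and 0.78 ± 0.17 in MB49 (adjusted p = 0.000519), and they ranked 2253 and 3902 among all genes. With libraries scaled by their totals only, the MB49 value was 0.48 (adjusted p = 0.0284). Over the 12 libraries Nlrc5 also tracked the other 9 genes least, with Pearson r = 0.597 between its log2 CPM and their mean standardised level, against 0.951 to 0.990 for each of the other genes. The 12 points fall into 4 groups, and r is given as a description.

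**Figure D3:**
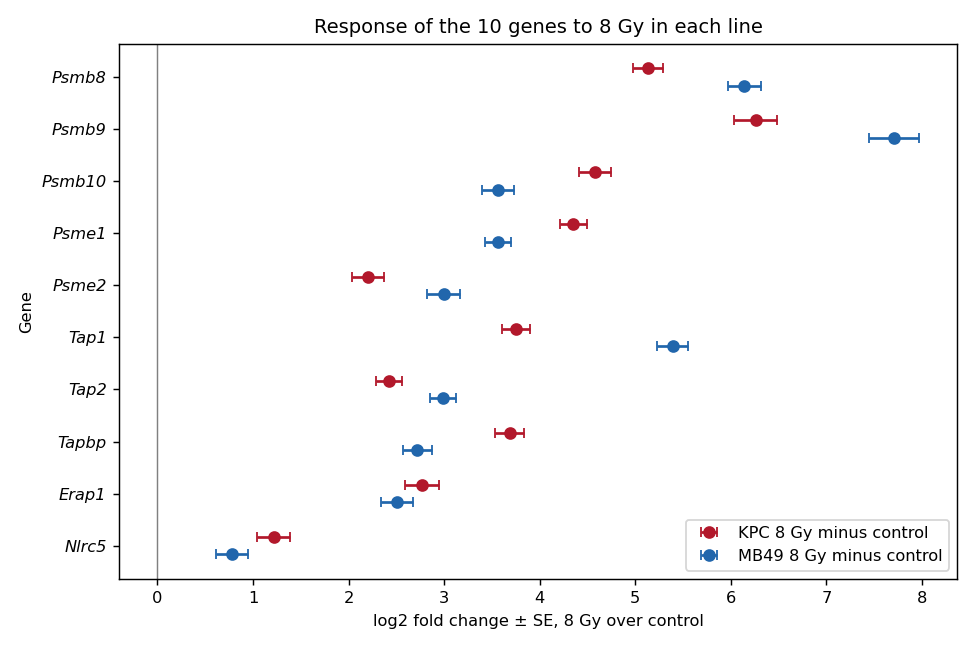
Log2 fold change with SE (8 Gy over control, n = 3 libraries per group) of each gene in KPC, the upper point of a pair, and in MB49, the lower point. All points lie above 0, from 0.78 for Nlrc5 to 7.71 for Psmb9, both in MB49.

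The order of levels per length differed between groups. In irradiated KPC cells Tapbp led with 713 ± 73.8 CPM per kilobase (SD, n = 3), followed by Psme1 with 579.5 ± 22.3 and Psme2 with 441 ± 9.22. Tap1 (272.1 ± 26.2), Psmb10 (272.1 ± 26.8) and Psmb8 (237 ± 12.8) came next, the first 2 of them within their spread of each other. Tap2 (98.0 ± 6.98), Psmb9 (85.2 ± 1.504), Nlrc5 (5.46 ± 0.495) and Erap1 (3.96 ± 0.492) closed the order. In irradiated MB49 cells Psme2 (525.5 ± 54.7 CPM per kilobase), Tapbp (430.6 ± 71.8), Tap1 (408 ± 62.9) and Psme1 (379 ± 31.1) led, with overlapping SDs between neighbours. They were followed by Psmb10 (132 ± 14.2), Psmb8 (110.0 ± 8.53), Tap2 (87.0 ± 8.86), Psmb9 (64.9 ± 5.76), Nlrc5 (9.49 ± 0.458) and Erap1 (5.08 ± 0.954). In KPC controls Psme2 led with 95.9 ± 14.0 CPM per kilobase, followed by Tapbp with 55.4 ± 2.48, and Erap1 was last with 0.580 ± 0.0744. In MB49 controls Psme2 (65.9 ± 16.9) and Tapbp (65.3 ± 6.90) led within their spread of each other, and Psmb9 was last with 0.317 ± 0.202.

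The responses of the lines differed for most of the 10 genes, in both directions. Responses are compared here as log2 fold changes, so a larger rise is a larger fold and need not be a larger gain in CPM. In the test of the difference, KPC response minus MB49 response, 8 of 10 passed, against 42.9% of all genes tested. The rise was larger in KPC for 3 genes (20.9% of all genes were called so): Psmb10 with a difference of 1.02 ± 0.21 (adjusted p = 0.00112), Tapbp with 0.96 ± 0.20 (adjusted p = 0.000895) and Psme1 with 0.79 ± 0.18 (adjusted p = 0.00172). It was smaller in KPC for 5 genes (22% of all genes): Tap1 with -1.64 ± 0.19 (adjusted p = 4.4e-06), Psmb9 with -1.45 ± 0.37 (adjusted p = 0.00465), Psmb8 with -1.01 ± 0.21 (adjusted p = 0.000981), Psme2 with -0.80 ± 0.23 (adjusted p = 0.0088) and Tap2 with -0.57 ± 0.18 (adjusted p = 0.0175). Erap1 (0.27 ± 0.23, adjusted p = 0.383) and Nlrc5 (0.44 ± 0.24, adjusted p = 0.146) did not pass.

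Several of these differences leaned on particular libraries or settings. For Psmb9 the difference was -2.03 without MB49 control replicate 3. Over all alternatives it ran from -2.03 to -1.12 and stayed called (adjusted p up to 0.0324). The Tap2 call was lost without MB49 control replicate 2 (-0.45, adjusted p = 0.0565), irradiated MB49 replicate 2 (-0.50, adjusted p = 0.0525), KPC control replicate 2 (-0.51, adjusted p = 0.0565) or irradiated KPC replicate 2 (-0.51, adjusted p = 0.0522). It was also lost with no filter on low counts (-0.44, adjusted p = 0.081). Nlrc5 passed without MB49 control replicate 3 (0.58, adjusted p = 0.0418) or KPC control replicate 3 (0.61, adjusted p = 0.0434) and with no filter (0.56, adjusted p = 0.0242). Short genes as a class moved up in MB49 after 8 Gy, with a median log2 fold change of 0.64 in the octile of tested genes around 831 bases, against -0.06 in KPC. With this trend removed the Psme2 difference shrank to -0.20 (adjusted p = 0.275). Its gene is listed with 962 bases.

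Set against MB49 level by level, KPC controls were higher for 5 genes and lower for 2, with 7 of 10 called against 67.3% of all genes (33% higher and 34.4% lower). Psmb8 (2.12 ± 0.16, adjusted p = 3.34e-09), Psmb9 (1.84 ± 0.33, adjusted p = 8.91e-05), Tap1 (1.06 ± 0.14, adjusted p = 2.98e-06), Tap2 (0.74 ± 0.13, adjusted p = 7.49e-05) and Psme2 (0.54 ± 0.16, adjusted p = 0.0065) were the higher ones on the log2 scale. The Psme2 libraries of the lines overlapped, and its call was lost with the length trend removed (0.13, adjusted p = 0.272). Nlrc5 (-1.24 ± 0.17, adjusted p = 5.36e-06) and Erap1 (-0.62 ± 0.18, adjusted p = 0.00465) were lower in KPC controls. Psmb10, Psme1 and Tapbp did not pass (0.02, -0.18 and -0.24, adjusted p = 0.912, 0.23 and 0.145). Psme1 passed as lower in KPC without KPC control replicate 1 (-0.30, adjusted p = 0.0471) and with the length trend removed (-0.53, adjusted p = 0.000262), and Tapbp with library totals only (-0.27, adjusted p = 0.0493).

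After 8 Gy the lines again differed for 7 of 10 genes, against 64.4% of all genes (31% higher and 33.4% lower). Psmb8 (1.11 ± 0.13, adjusted p = 1.16e-06), Psmb10 (1.04 ± 0.15, adjusted p = 9.14e-06), Tapbp (0.73 ± 0.14, adjusted p = 0.000215), Psme1 (0.61 ± 0.12, adjusted p = 0.00032) and Psmb9 (0.39 ± 0.17, adjusted p = 0.0469) were higher in irradiated KPC cells. Nlrc5 (-0.80 ± 0.17, adjusted p = 0.000455) and Tap1 (-0.58 ± 0.13, adjusted p = 0.00104) were lower. Tap2, Psme2 and Erap1 did not pass (0.17, -0.25 and -0.36, adjusted p = 0.242, 0.169 and 0.0507). The Psmb9 call was lost without any of the irradiated libraries of either line (0.33 to 0.45, adjusted p = 0.0553 to 0.149), without MB49 control replicate 1 (0.40, adjusted p = 0.0502) and with library totals only (0.27, adjusted p = 0.197). Erap1 passed without MB49 control replicate 3 (-0.36, adjusted p = 0.0464), irradiated MB49 replicate 2 (-0.46, adjusted p = 0.0264) or irradiated KPC replicate 2 (-0.46, adjusted p = 0.0329), with library totals only (-0.49, adjusted p = 0.026) and with only the libraries compared in the fit (-0.37, adjusted p = 0.044). Psme2 passed as lower in irradiated KPC cells with library totals only (-0.38, adjusted p = 0.0361). The largest gap between the lines among the 10 genes was 1.11 after 8 Gy and 2.12 in controls, and the median gap 0.60 and 0.68, against 0.71 and 0.79 over all genes.

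**Figure D4:**
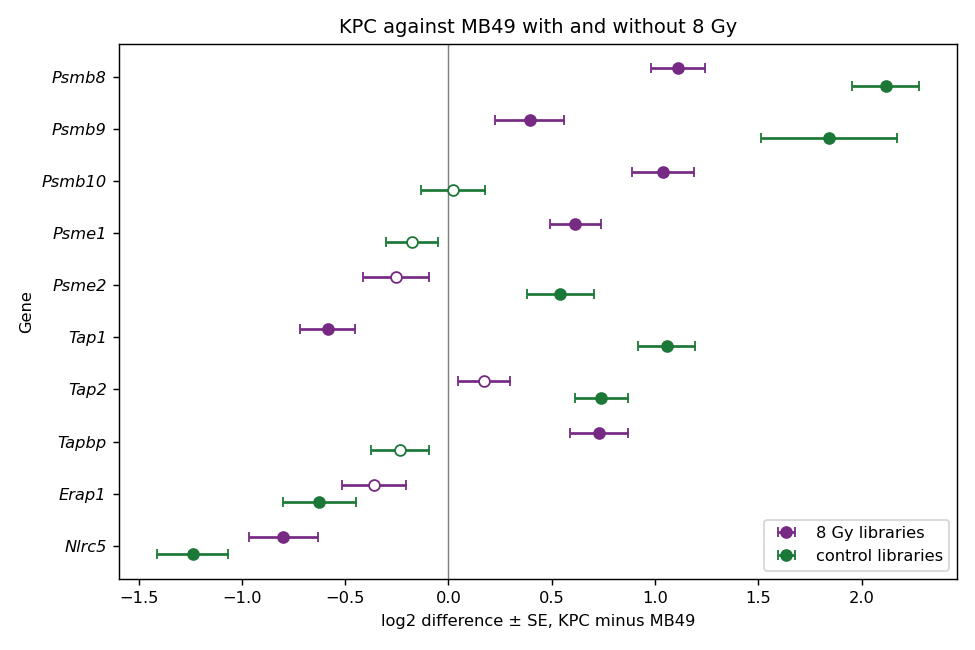
Log2 difference between KPC and MB49 with SE for each gene, among irradiated libraries (upper point of a pair) and among controls (lower point), with open points where the adjusted p was 0.05 or more. Tap1 lies at -0.58 among irradiated libraries and at 1.06 among controls, while Psmb10 and Tapbp have filled points among irradiated libraries (1.04 and 0.73) and open ones among controls.

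Other genes of the class I route moved less uniformly. Of 76 further genes on 8 lists, 41 were higher and 13 lower in KPC cells after 8 Gy, and 51 were higher and 12 lower in MB49 cells. Over all genes tested, 31.3% were higher and 32% lower in KPC, and 35.3% higher and 31.6% lower in MB49, and the counts of single lists below stand against the same shares. Of the 76, 15 in KPC and 13 in MB49 were called and at least 4-fold higher, against 7.45% and 8.05% of all genes. Of 9 class I heavy chain and light chain genes, 8 rose in KPC (median 2.32) and 9 in MB49 (median 2.67), and none fell. The gene not called in KPC was H2-Q6 (2.00 ± 1.26, adjusted p = 0.263), whose value enters that median. On the log2 scale it lay 10.5 lower in KPC than in MB49 among controls and 11.2 lower after 8 Gy. The heavy chain gene H2-K1 averaged 2930 ± 126 CPM in irradiated KPC cells, against 498 ± 31.8 CPM in KPC controls, and 1571 ± 113 CPM in irradiated MB49 cells, against 321 ± 59.1 CPM in MB49 controls. The shared light chain gene B2m averaged 1777 ± 55.3 CPM and 357 ± 72.6 CPM in irradiated and control KPC cells, and 1484 ± 281 CPM and 194 ± 24.7 CPM in irradiated and control MB49 cells. H2-T22 rose most of the list, by 4.45 in KPC (adjusted p = 5.95e-14) and 3.83 in MB49 (adjusted p = 4.79e-13). Reads of such near-identical heavy chain genes may be shared between them.

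Of 6 listed chaperone genes of the endoplasmic reticulum, 6 rose in KPC and 5 rose in MB49, with medians of 1.49 and 1.64. The list holds general folding genes such as Hspa5 beside those that assist loading. Tapbpl, whose product TAPBPR edits the peptides bound to class I, was at 142 ± 10.3 CPM in irradiated KPC cells, against 7.35 ± 0.863 CPM in KPC controls. It was at 115 ± 9.70 CPM in irradiated MB49 cells, against 29.6 ± 4.09 CPM in MB49 controls. Its rises of 4.27 and 1.96 differed by 2.31 (adjusted p = 6.88e-08). The lectin chaperone gene Calr rose in both lines, by 1.71 in KPC and 1.61 in MB49 (adjusted p = 1.33e-09 and 2.34e-09). Hspa5, the general chaperone BiP, rose by 1.26 in KPC and fell by 0.45 on the log2 scale in MB49 (adjusted p = 4.96e-07 and 0.00795).

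Other proteasome genes moved less. Of 11 other subunit genes of the 20S core, 4 rose and 0 fell in KPC (median 0.29), and 10 rose and 0 fell in MB49 (median 0.93), where Psma5 moved most (1.78, adjusted p = 2.6e-08). The 18 genes of the 19S regulator, which feeds ubiquitinated proteins to the core, went both ways, with 9 up and 4 down in KPC (median 0.19) and 8 up and 5 down in MB49 (median 0.25). Of 8 other activator and assembly genes, 1 rose and 5 fell in KPC (median -0.57), and 3 rose and 3 fell in MB49 (median -0.09). Pomp, the assembly factor that favours immunoproteasomes, averaged 92.2 ± 5.46 CPM in irradiated KPC cells, against 81.1 ± 19.2 CPM in KPC controls (0.18, adjusted p = 0.428). In MB49 it averaged 243 ± 43.3 CPM after 8 Gy, against 61.5 ± 17.3 CPM in controls (1.98, adjusted p = 2.38e-07), and the responses differed by -1.80 (adjusted p = 8.96e-05). Of 9 cytosolic peptidase genes, 5 rose and 1 fell in KPC and 6 rose and 0 fell in MB49, led by the interferon-inducible Lap3 with 2.65 and 1.97 (adjusted p = 5.25e-12 and 1.68e-10).

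**Figure D5:**
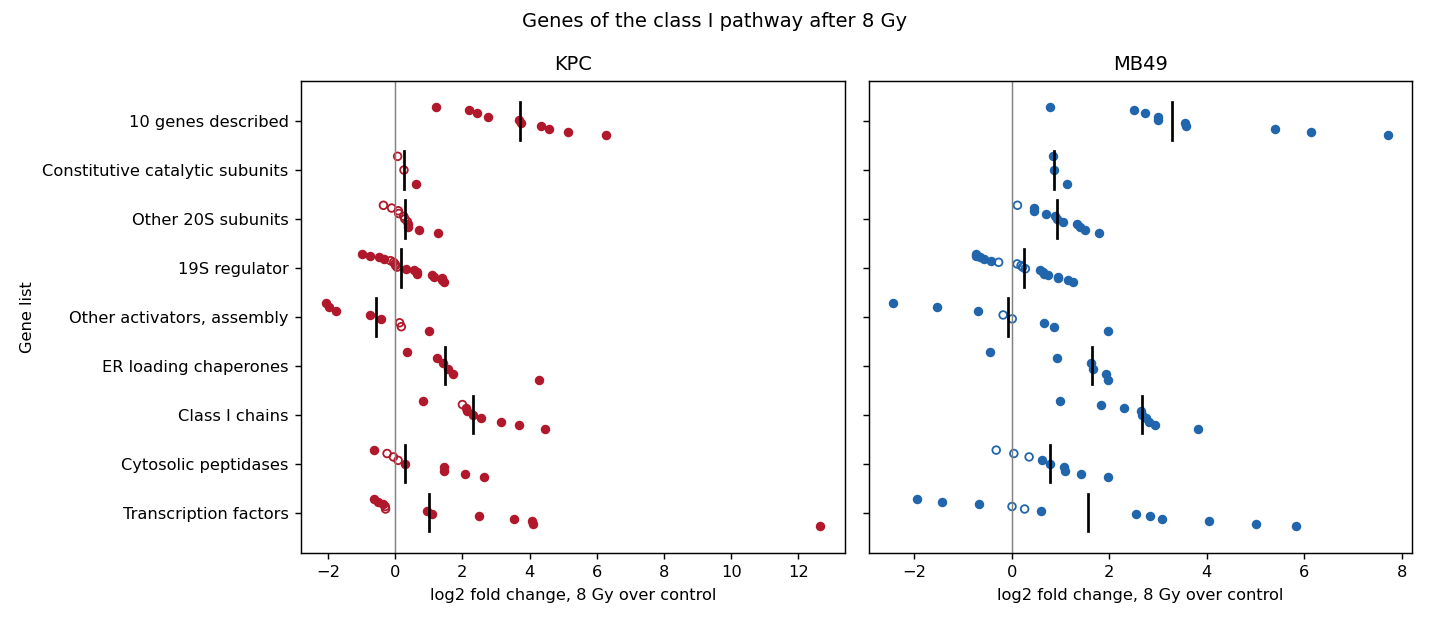
Log2 fold change (8 Gy over control) of each tested gene by list, KPC on the left and MB49 on the right, with filled points at an adjusted p under 0.05, open points otherwise and the median of a list as a bar. The 10 genes have medians of 3.72 and 3.28, the class I chains 2.32 and 2.67, and the constitutive catalytic subunits 0.26 and 0.87.

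Of 12 genes of transcription factors that act on the class I route, 7 rose and 3 fell in each line. Irf1, an interferon-induced activator, was at 2347 ± 41.2 CPM in irradiated KPC cells, against 137 ± 6.44 CPM in KPC controls. In MB49 it was at 1297 ± 128 CPM after 8 Gy, against 153 ± 9.59 CPM in controls. Its rise was larger in KPC, with a difference of 1.01 (adjusted p = 0.000115). Rela, the NF-kB subunit gene, fell by 0.64 in KPC and 1.95 in MB49 on the log2 scale (adjusted p = 0.00115 and 5.55e-09). Rfx5, whose product recruits NLRC5 to class I promoters, fell by 0.52 and 0.68 (adjusted p = 0.0078 and 0.000735). Ciita, the class II counterpart of Nlrc5, had 2120 counts in irradiated KPC cells, against 0 in KPC controls, and 322 in irradiated MB49 cells, against 7 in MB49 controls. Of 6 interferon and receptor genes 4 were tested, of which 3 rose and 0 fell in KPC and 2 rose and 1 fell in MB49. Ifng had 0 counts in all 12 libraries, and Ifnb1 had 10 counts in irradiated KPC cells, 1 in KPC controls, 1 in irradiated MB49 cells and 0 in MB49 controls.

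Leukocytes express immunoproteasome genes without stimulation, so their markers were counted. Of 22 marker genes, 14 to 17 were at 0 counts in an irradiated KPC library and 14 to 17 in a KPC control, and 11 to 13 in an irradiated MB49 library and 10 to 15 in an MB49 control. Their summed level was 221 to 239 CPM in irradiated KPC libraries, against 7.10 to 7.94 CPM in KPC controls, and 494 to 580 CPM in irradiated MB49 libraries, against 238 to 268 CPM in MB49 controls. Cd68, a lysosomal gene not limited to leukocytes, was at 219 CPM in irradiated and 2.61 CPM in control KPC cells, and at 480 and 62.8 CPM in irradiated and control MB49 cells. It made up most of the sum in both irradiated groups. Flt3 was at 0.807 and 2.51 CPM in irradiated and control KPC cells, and at 45.8 and 187 CPM in irradiated and control MB49 cells, where it made up most of the sum in controls. Of the 22 genes 6 were tested, and in each line 4 rose and 1 fell. In KPC these were Cd68 (6.39), Csf1r (3.86, from 98 counts in irradiated cells and 8 in controls), Mrc1 (1.82) and Cd79a (1.06) upward and Flt3 (-1.61) downward (adjusted p = 3.8e-15, 0.000103, 3.57e-05, 0.00173 and 1.76e-06). In MB49 they were Ly6g (3.32, from 257 counts in irradiated cells and 33 in controls), Cd68 (2.93), Mrc1 (2.65, from 959 and 198 counts in irradiated cells and controls) and Cd79a (1.44) upward and Flt3 (-2.03) downward (adjusted p = 6.76e-06, 3.95e-12, 1.37e-08, 0.042 and 1.63e-10). Csf1r averaged 1.62 CPM in irradiated KPC cells and at most 0.106 CPM in any other group. Ly6g averaged 4.31 CPM in irradiated MB49 cells, 0.431 CPM in MB49 controls and at most 0.0496 CPM in the KPC groups. Csf1r and Ly6g thus passed the filter on low counts through the group where they were high, and their calls are no independent support of a rise. The defining leukocyte gene Ptprc had 1 count in all, in an irradiated MB49 library, and Fcgr1, Cd3g, Klrb1c, Ncr1 and S100a9 had 0 in every library. The part of such markers in the levels of the 10 genes was not tested.

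The 8 genes outside the 10 whose level over the 12 libraries was most like the mean standardised level of the 10 were Gbp2 (Pearson r = 0.997), Ass1 (0.996), Cd274 (0.995), Cpped1 (0.994), Ikbkg (0.994), Ilf2 (0.993), Creg1 (0.992) and Lipg (0.991). Their log2 fold changes ran from 1.39 for Ilf2 to 9.42 for Gbp2 in KPC and from 1.38 to 8.91 for the same 2 genes in MB49.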

How the data were processed

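RNA was extracted with TRIzol and made into libraries with a stranded mRNA kit of Illumina, per the labels' protocols. The submitters' processing notes name fastp, HISAT2, StringTie and GRCm39, without versions or order; no source used here gives the read counter or its strand setting. The authors deposited estimated counts per gene, unscaled (6.2 to 8.65% of a library's values are not whole), 4 columns of group means, not used in tests, and gene lengths, used for levels per length. Of the rows, 525 have no symbol and stayed in under their identifier.

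Estimated counts were rounded, filtered (edgeR's filterByExpr, 42818 genes removed), scaled by TMM (factors 0.829 to 1.18) and fitted with edgeR's quasi-likelihood model, 1 coefficient per group, 12 libraries, 8 residual degrees of freedom. Standard errors are the fold change over the root of F. The software was R 4.3.3, edgeR 4.0.16, limma 3.58.1 and DESeq2 1.42.0. The fit was tested on simulated data. Log2 CPM for correlations used a prior count of 2, and ratios of subunits added 0.5 counts.

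The 10 genes and the gene lists were chosen with earlier results of these data known. Named are all 10 genes and their constitutive partners, context genes, some but not all of the list genes that moved most, and the 8 genes of most similar level (mean of at least 5 CPM). RefSeq sequences carry build GRCm38.p6; GENCODE vM21 served to find overlapping genes. Without the strand setting, reads of a gene and of a gene overlapping it on the opposite strand may be shared. For genes on the same strand, such as Tapbp and Zbtb22, no strand setting would separate them. Alternatives were scaling, filter, DESeq2, fewer libraries, a replicate block, a gene length trend and leaving out each library. One of the listed genes and one of the searched strings are not reported here.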

Additional observations from a re-analysis of the deposited data

Results flagged for a closer look

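For 8 of the 10 genes the response to 8 Gy differed between the lines in the test of the difference itself (KPC response minus MB49 response, edgeR quasi-likelihood test, adjusted over all genes, against 42.9% of all genes tested). The log2 differences were 1.02 for Psmb10, 0.96 for Tapbp and 0.79 for Psme1, with the larger rise in KPC, and -1.64 for Tap1, -1.45 for Psmb9, -1.01 for Psmb8, -0.80 for Psme2 and -0.57 for Tap2, with the larger rise in MB49. In each of these genes all 3 irradiated libraries lay above all 3 controls in both lines, so the lines differed in size of response and not in direction. The Tap2 call was lost in 5 of 20 alternative settings. The Psme2 call was lost in 2 of 20, those with the length trend removed. Groups of 3 libraries are too small to look for outlying libraries.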

How the results depend on the processing

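The 10 genes were called higher in both lines under every alternative run, including leaving out each library. The exact tests of the 3 subunit ratios stayed at the same side of 0.05 where rerun, which did not include removing the length trend. Of 1000 recomputed log2 values of the 10 genes over 5 comparisons, 965 kept direction and side of the threshold, 16 lost and 12 gained a call and 7 changed sign, in 10 of 50 results. All 7 changes of sign were of Psmb10 between the controls, which was never called: -0.0131 with library totals only, -0.0109 with no filter and -0.22 with the length trend removed, and -0.11 to 0.19 when 1 library was left out, with negative values without MB49 control replicates 1 or 2 or KPC control replicates 1 or 2. With library totals only, the median of all genes shifted by -0.38 in KPC and -0.28 in MB49, and the 10 genes' medians were 3.33 and 2.98. No label says that replicate numbers pair cultures, and deviations of same-numbered libraries did not correlate throughout (r of -0.12 to 0.02 in KPC and -0.18 to 0.17 in MB49). With the replicate block 10, 10 and 8 of the genes were called in KPC, in MB49 and for the difference, and the subunit ratios gave p = 0.03125 in an exact permutation test of the signs of 6 pairs, the smallest it allows. The length trend removed together with the block left 7 called for the difference. DESeq2 called 10, 10 and 8. Psmb9 in controls rests on 113 counts in KPC and 32 in MB49, so its fold changes are the least exact of the 10.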

Other observations

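Genes next to the 10 were looked at after the results were known. RefSeq places 25 other protein-coding genes within 2 places of a member, of which 18 were tested: 13 were higher and 3 lower in KPC cells after 8 Gy, and 11 were higher and 5 lower in MB49 cells, with medians of 0.78 and 0.95. Over all genes tested, 31.3% were higher and 32% lower in KPC, and 35.3% higher and 31.6% lower in MB49. H2-DMb1, a class II peptide loading gene beside Psmb9, rose by 4.15 in KPC and 3.31 in MB49 (adjusted p = 3.45e-12 and 1.09e-10). The ubiquitin ligase gene Rnf31 and the interferon signalling gene Irf9 follow Psme2. Rnf31 rose by 3.03 in KPC and 1.92 in MB49, and Irf9 by 1.09 and 2.54. Zbtb22, beside Tapbp, fell by 1.66 and 1.54 on the log2 scale, and Pskh1, near Psmb10, by 0.98 and 0.69. Slc12a4, also near Psmb10, rose by 0.34 in KPC and 4.39 in MB49. H2-Ab1, near Tap2, rose by 4.12 and 3.93, Cpne2, beside Nlrc5, by 2.69 and 2.21, and Daxx, near Tapbp, by 2.64 and 0.86.

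The noncoding gene 9330175E14Rik, which GENCODE vM21 places over Nlrc5 on the opposite strand, was at 11.98 ± 1.40 CPM in irradiated KPC cells, against 0.519 ± 0.190 CPM in KPC controls, and at 11.1 ± 1.43 CPM in irradiated MB49 cells, against 0.365 ± 0.189 CPM in MB49 controls (SD, n = 3). Its log2 fold changes were 4.51 ± 0.28 and 4.92 ± 0.30 (adjusted p = 4.08e-10 and 2.18e-10), while Nlrc5 itself rose by 1.22 and 0.78. Since the counting's strand setting is not known, how reads were divided between them was not tested. The antisense genes Gm20496 and Gm16156, over Psmb8 with Tap2 and over Psmb10, had 9 counts or fewer in every group. Gm15821, over Tap2 on the opposite strand, had 24 and 4 counts in irradiated and control KPC cells, and 32 and 3 in MB49. Cast, which overlaps Erap1 by 834 bases on the opposite strand, averaged 124.5 and 61.2 CPM in irradiated and control KPC cells. In MB49 it averaged 293 and 138 CPM in irradiated and control cells. Gm19412, over Tapbp on the opposite strand, had 353 and 213 counts in irradiated and control KPC cells, and 114 and 73 in MB49. How reads were divided in these pairs was not tested.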
